A study of Mus musculus with 9 samples.

Results

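The unfolded protein response and the ATF4 response were followed through a list of 32 genes: the transcription factors and sensors that start these programmes and the targets they are best known for. Their RNA was read in primary mouse osteoblasts, the bone-forming cells, after treatment with fragments of parathyroid hormone. A gene was read only from transcript clusters (the array's probe groups for one transcript region) that carry a single gene symbol, and from the brightest of them where it had more than 1. By this rule 31 of the 32 genes were measured, out of 22180 genes and 23521 single-symbol clusters on the array. Pdia4, a disulfide isomerase of the endoplasmic reticulum, lies on 1 cluster that names several genes and has no value here.

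The cells were isolated from calvaria, the roof of the skull, of C57BL/6J mice at an age of 7 to 10 days. At passage 2 they were differentiated from day 3 with ascorbic acid and beta-glycerophosphate, and on day 10 they were kept without serum for 24 h, in all groups alike. They then received 100 nM human hPTH(1-34), 1 µM of the bovine amide (D-Trp12,Tyr34) bPTH(7-34), or vehicle for 4 h, with 3 arrays in each group (Affymetrix Mouse Gene 2.0 ST, 100 ng of total RNA). The receptor for the hormone raises cAMP when hPTH(1-34) activates it. bPTH(7-34) lacks the first residues of the hormone and is used to block this cAMP response. The doses differ, so the difference between the peptides is no comparison at a matched dose. Both comparisons against vehicle share the same 3 vehicle arrays. Each replicate was an independent cell preparation, per the series' design text, and whether the 3 treatments of one number shared a preparation is not stated, so the p-values measure the spread between these arrays.

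As background, the endoplasmic reticulum is where secreted proteins such as collagen are folded, and 3 sensors in its membrane respond when unfolded protein builds up. IRE1 (gene Ern1) splices the RNA of Xbp1 into the form that encodes an active transcription factor, and ATF6 is itself cut to release one. XBP1 and ATF6 raise chaperones, disulfide isomerases and the machinery of ER-associated degradation (ERAD), which returns misfolded proteins to the cytosol for destruction. PERK (gene Eif2ak3) phosphorylates eIF2alpha, which lowers protein synthesis in general but favours translation of ATF4. Other eIF2alpha kinases, which sense amino acid shortage, haem or viral RNA, lead to the same factor. ATF4 raises genes of amino acid supply, of redox balance and of the shut-off of the response. In osteoblasts ATF4 and XBP1 are both known for roles in bone formation.

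Some of the members' own promoters show the letters by which the 2 arms are usually told apart. The windows are RefSeq's, build GRCm38.p6, from 250 bases before to 50 bases after the transcription start, and 29 of the 32 members have one. Atf6, Derl1 and Manf are not in that table. The ER stress response element (ERSE, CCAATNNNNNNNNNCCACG), searched on both strands, stood in the windows of 6 of 16 genes of the XBP1/ATF6 arm and 0 of 12 of the ATF4 arm, and in 0.137% of all 27025 genes with a window. The related ERSE-II (ATTGGNCCACG) stood in 1 of the 16, Herpud1, and in 0.0444% of all genes. These stretches are printed to show the element in its place, 5′ to 3′ on the gene's strand, with the element in capitals. Where the match is on the other strand, as in Calr, Creld2 and Derl3, it reads from CGTGG to ATTGG.
Syvn1, chr19:6046522-6046560, plus strand: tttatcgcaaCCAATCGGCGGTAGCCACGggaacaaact
Derl3, chr10:75893232-75893270, plus strand: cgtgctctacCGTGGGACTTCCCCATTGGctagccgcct
Creld2, chr15:88819510-88819548, plus strand: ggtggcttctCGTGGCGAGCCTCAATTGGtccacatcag
Pdia6, chr12:17266481-17266519, plus strand: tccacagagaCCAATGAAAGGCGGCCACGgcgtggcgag
Calr, chr8:84847065-84847103, minus strand: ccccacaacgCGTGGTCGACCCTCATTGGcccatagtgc
Canx, chr11:50325790-50325828, minus strand: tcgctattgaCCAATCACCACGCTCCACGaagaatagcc
Herpud1, chr8:94386367-94386397, plus strand: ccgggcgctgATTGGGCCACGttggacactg

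The core of the C/EBP-ATF response element (CARE, TGATGNAA, both strands), which ATF4 binds together with C/EBP factors, stood in the windows of 4 of 12 ATF4 arm genes, in 1 of 16 of the XBP1/ATF6 arm, and in 4.51% of all genes. In Vldlr, Chac1 and Herpud1 the CARE match reads TTGCATCA, the composite core, which 1.03% of all genes have. That core is one form of the CARE core read on the other strand, so it is no second element. The matches lie before the transcription start, except that of Trib3, which lies just after it. They are printed in the same way.
Asns, chr6:7693215-7693242, minus strand: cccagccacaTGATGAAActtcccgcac
Trib3, chr2:152344034-152344051, minus strand: caggtTTACATCAgccgg
Chac1, chr2:119351039-119351066, plus strand: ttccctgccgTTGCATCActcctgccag
Vldlr, chr19:27216810-27216837, plus strand: gcagcaatagTTGCATCAgcgctcctag
Herpud1, chr8:94386307-94386334, plus strand: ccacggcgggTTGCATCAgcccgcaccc

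Members were listed because they are known targets, so these shares describe the list and were not tested. A match is not a measured binding site. The core of the unfolded protein response element (UPRE, TGACGTGG) stood in 0 of the 29 genes and in 0.714% of all genes. The full cAMP response element (TGACGTCA), the site of CREB, which cAMP signalling activates, stood in 1 of 29, Ppp1r15a, and in 2.03% of all genes. The plot of these shares sets both arms beside all genes.

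**Figure D1:**
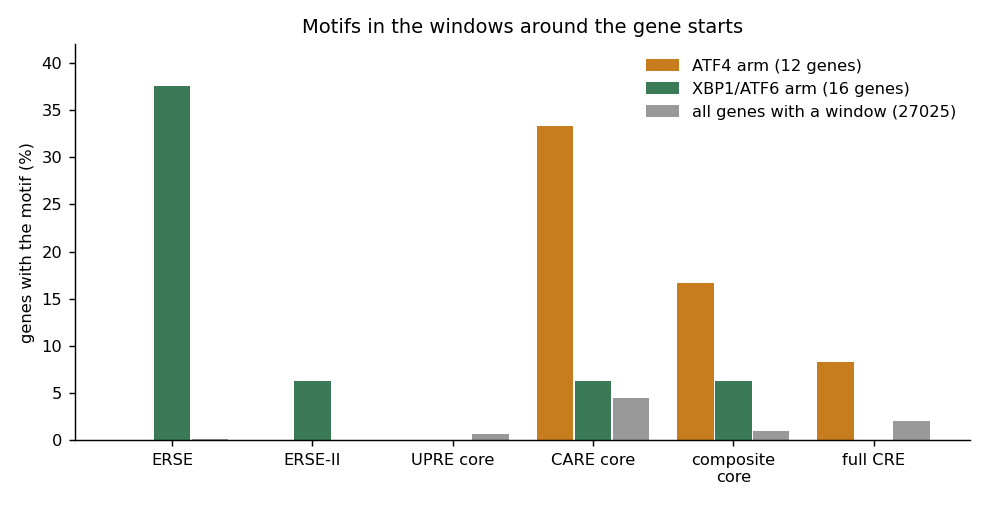
Share of genes (percent, vertical axis) whose promoter window holds each sequence element (horizontal axis), for the ATF4 arm (12 genes), the XBP1/ATF6 arm (16 genes) and all 27025 genes with a window. ERSE was found in 0 genes of the ATF4 arm and 6 of the XBP1/ATF6 arm, and the CARE core in 4 and 1 of them.

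With hPTH(1-34), 2 members differed from vehicle by more than the rest: Ddit4 (REDD1), an inhibitor of mTORC1 that ATF4 and other stress factors raise, and Xbp1, the transcription factor of the IRE1 arm. Relative to vehicle their RNA was 1.84-fold and 1.47-fold higher, and neither passed the test across all clusters. The chaperones and disulfide isomerases among the members, and Ddit3 (CHOP), Trib3 and Chac1, which are classical reporters of ER stress, had mean differences close to 0. For these reporters the 95% intervals of the limma fit were -0.48 to 0.39 (Ddit3), -0.30 to 0.43 (Trib3) and -0.32 to 0.16 (Chac1). Differences within these bounds were not resolved. Trib3 and Chac1 were also dim, with vehicle means of 2.13 and 2.78 on the log2 scale. In the bPTH(7-34) group no member differed from vehicle past the test, and Ddit4 alone was higher in the hPTH(1-34) than in the bPTH(7-34) group past the test.

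Counted over all members, 0 of 31 passed an adjusted p of 0.05 for hPTH(1-34) against vehicle (limma, Benjamini-Hochberg over 23521 clusters), where 0.451% of all clusters passed. At an unadjusted p below 0.05, 3 members were higher (Ddit4, Xbp1 and Derl1, 9.68% of the 31) and 0 were lower, against 5.53% of all clusters higher and 3.78% lower. Brighter clusters reached this limit more often. In either direction 2189 of all 23521 did, 1430 of 9562 averaging 3 or more on the log2 scale, and 948 of 5144 averaging 5 or more. Among members with such averages, 3 of 25 and 2 of 17 were higher and 0 lower. The share over all clusters is thus a low reference for bright genes. In 4 members (12.9%) every hPTH(1-34) array lay above every vehicle array (Ddit4, Xbp1, Atf4 and Syvn1), and in 0 below, against 6.08% of all clusters above and 4.58% below. The median difference over the 31 members was 0.03 on the log2 scale, with 21 above 0, against a median of 0 over all clusters. RNA here came from whole cultures, so that fewer cells of a type and less RNA per cell cannot be told apart.

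**Figure D2:**
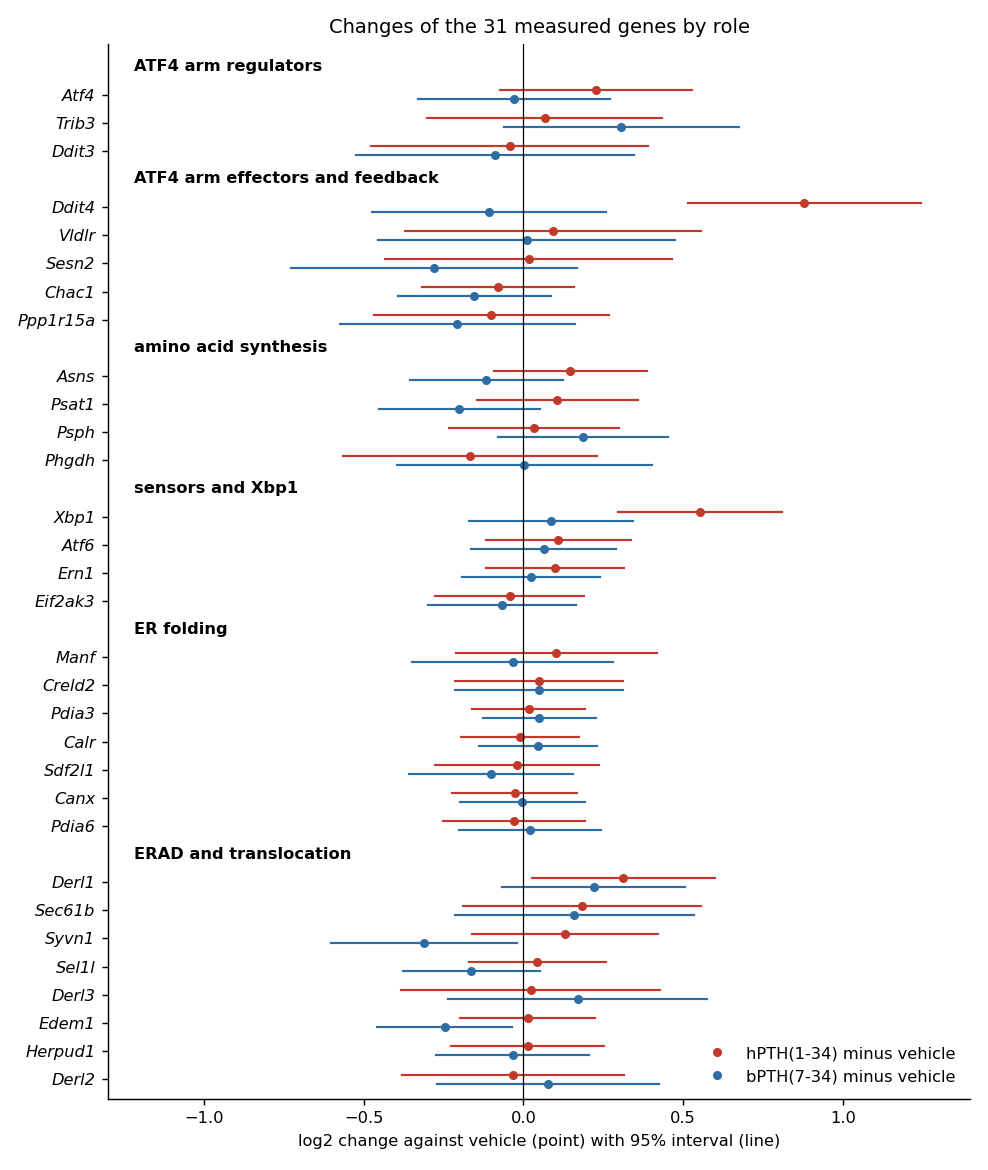
Log2 difference from vehicle (horizontal axis) of each of the 31 measured members for hPTH(1-34) and for bPTH(7-34), with 95% intervals from the limma fit (n = 3 arrays per group). Ddit4 (0.88) and Xbp1 (0.55) stand apart in the hPTH(1-34) group, and most other members lie near 0 in both.

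In the ATF4 arm the difference was concentrated in Ddit4. Its log2 level was 4.88, 5.59 and 5.31 in the hPTH(1-34) arrays, 4.33, 4.15 and 4.34 in the bPTH(7-34) arrays, and 4.46, 4.36 and 4.32 in the vehicle arrays (replicates 1 to 3). All 3 hPTH(1-34) arrays were above all 6 others, and replicate 1 was the lowest of the 3. The difference of hPTH(1-34) from vehicle was 0.88 ± 0.16 (SE; 95% interval 0.51 to 1.25, adjusted p = 0.0681, limma with Benjamini-Hochberg), a rank of 134 by p among all clusters. Within replicate numbers it was 0.42, 1.23 and 0.99. Without hPTH(1-34) replicate 1 it was 1.07, and Ddit4 then passed (adjusted p = 0.00851).

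The bPTH(7-34) arrays did not follow. Ddit4 differed from vehicle by -0.11 ± 0.16 (adjusted p = 0.999), and those groups overlapped. Between the peptides it was 0.99 ± 0.16 higher in the hPTH(1-34) group, 1.98-fold (95% interval 0.62 to 1.35), and this passed the test with little room (adjusted p = 0.0423). It did not pass with the replicate number as a block (adjusted p = 0.0660) or when either all clusters (0.121) or only the 6 arrays of the 2 peptides (0.190) entered the limma fit. Leaving out any 1 of 8 arrays, all except hPTH(1-34) replicate 1, also ended the call, with adjusted p from 0.0724 to 0.165. Without that replicate the adjusted p was 0.00592.

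The bases before the start of Ddit4 are printed because this gene carries the one difference that passed. The printed bases hold 1 match to CCACG, the part of the ERSE that ATF6 and XBP1 contact (in capitals, on the other strand, as CGTGG). They hold 0 matches to TGACG, the shorter core of the cAMP response element. A further CGTGG lies in the window before the printed stretch, at -237 to -233 from the start. In 35.5% of all genes the whole window holds the first of these short words, and in 23.0% the second, so that neither singles out a gene.
Ddit4, chr10:59951771-59951970, minus strand: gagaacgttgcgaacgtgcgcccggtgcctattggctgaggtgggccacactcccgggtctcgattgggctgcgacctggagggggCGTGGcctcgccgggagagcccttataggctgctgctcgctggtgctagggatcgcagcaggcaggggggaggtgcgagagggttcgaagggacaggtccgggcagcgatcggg

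Atf4 itself did not differ past the test. Its log2 level was 6.85, 7.08 and 6.90 in the hPTH(1-34) arrays, 6.81, 6.85 and 6.40 in the bPTH(7-34) arrays, and 6.80, 6.74 and 6.61 in the vehicle arrays. The hPTH(1-34) arrays lay just above the vehicle arrays, while they overlapped those with bPTH(7-34). The difference from vehicle was 0.23 ± 0.13 with hPTH(1-34) (adjusted p = 0.664) and -0.03 ± 0.13 with bPTH(7-34) (adjusted p = 0.999, limma for both). ATF4 is known to be controlled mainly through its translation, which RNA levels do not show.

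Ddit3 encodes CHOP, the factor that links lasting ER stress to cell death. Its log2 level was 4.62, 4.25 and 4.18 with hPTH(1-34), 4.52, 4.30 and 4.09 with bPTH(7-34), and 4.76, 4.08 and 4.34 with vehicle. Replicate 1 was the highest in each of the 3 groups, and the groups overlapped throughout. The differences from vehicle were -0.04 ± 0.19 and -0.09 ± 0.19 for hPTH(1-34) and bPTH(7-34) (adjusted p = 0.971 and 0.999, limma). With the replicate number as a block the SE of both was 0.12, and neither passed (adjusted p = 0.933 and 0.994, limma). Trib3, a pseudokinase that CHOP and ATF4 raise and that dampens ATF4, was dim, at 2.26, 2.26 and 2.06 with hPTH(1-34), 2.46, 2.29 and 2.55 with bPTH(7-34), and 1.78, 2.14 and 2.46 with vehicle. The vehicle arrays of Trib3 spanned those of both peptides apart from 1 bPTH(7-34) array, and its difference between the peptides was -0.24 ± 0.16 (hPTH(1-34) minus bPTH(7-34), adjusted p = 0.729, limma), the 1 member whose hPTH(1-34) arrays all lay below those with bPTH(7-34).

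The members of amino acid synthesis are asparagine synthetase (Asns) and the 3 enzymes of serine synthesis (Phgdh, Psat1 and Psph). None of the 4 differed from vehicle past the test with hPTH(1-34), and the differences ran from -0.17 (Phgdh) to 0.15 (Asns). Asns was at 5.78, 5.98 and 6.03 with hPTH(1-34), 5.69, 5.64 and 5.67 with bPTH(7-34), and 5.77, 5.64 and 5.94 with vehicle. Psat1 was at 4.72, 4.74 and 4.87 with hPTH(1-34), 4.64, 4.25 and 4.52 with bPTH(7-34), and 4.73, 4.64 and 4.64 with vehicle. In both genes the hPTH(1-34) arrays were above the bPTH(7-34) arrays and overlapped the vehicle arrays. Between the peptides Asns differed by 0.26 ± 0.11 (adjusted p = 0.471) and Psat1 by 0.31 ± 0.11 (adjusted p = 0.410, limma for both), short of the test.

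The other effectors and brakes of the ATF4 arm had mean differences near 0 with hPTH(1-34). They are Sesn2 (sestrin 2, a leucine sensor that restrains mTORC1), Chac1 (which degrades glutathione), Ppp1r15a (GADD34, which recruits the phosphatase that reverses eIF2alpha phosphorylation) and Vldlr (a lipoprotein receptor). Against vehicle they differed by 0.02, -0.08, -0.10 and 0.09 in this order, with adjusted p from 0.865 to 0.992 (limma). Ppp1r15a, the member with a full cAMP response element, was at 3.03, 2.74 and 2.41 with hPTH(1-34), 2.58, 2.43 and 2.85 with bPTH(7-34), and 2.89, 2.74 and 2.85 with vehicle, and these groups overlapped. Sesn2 had the widest spread of the 4 with hPTH(1-34), at 5.85, 5.72 and 5.13, against 5.81, 5.40 and 5.44 with vehicle, and its SD of 0.38 there was many times the difference.

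**Figure D3:**
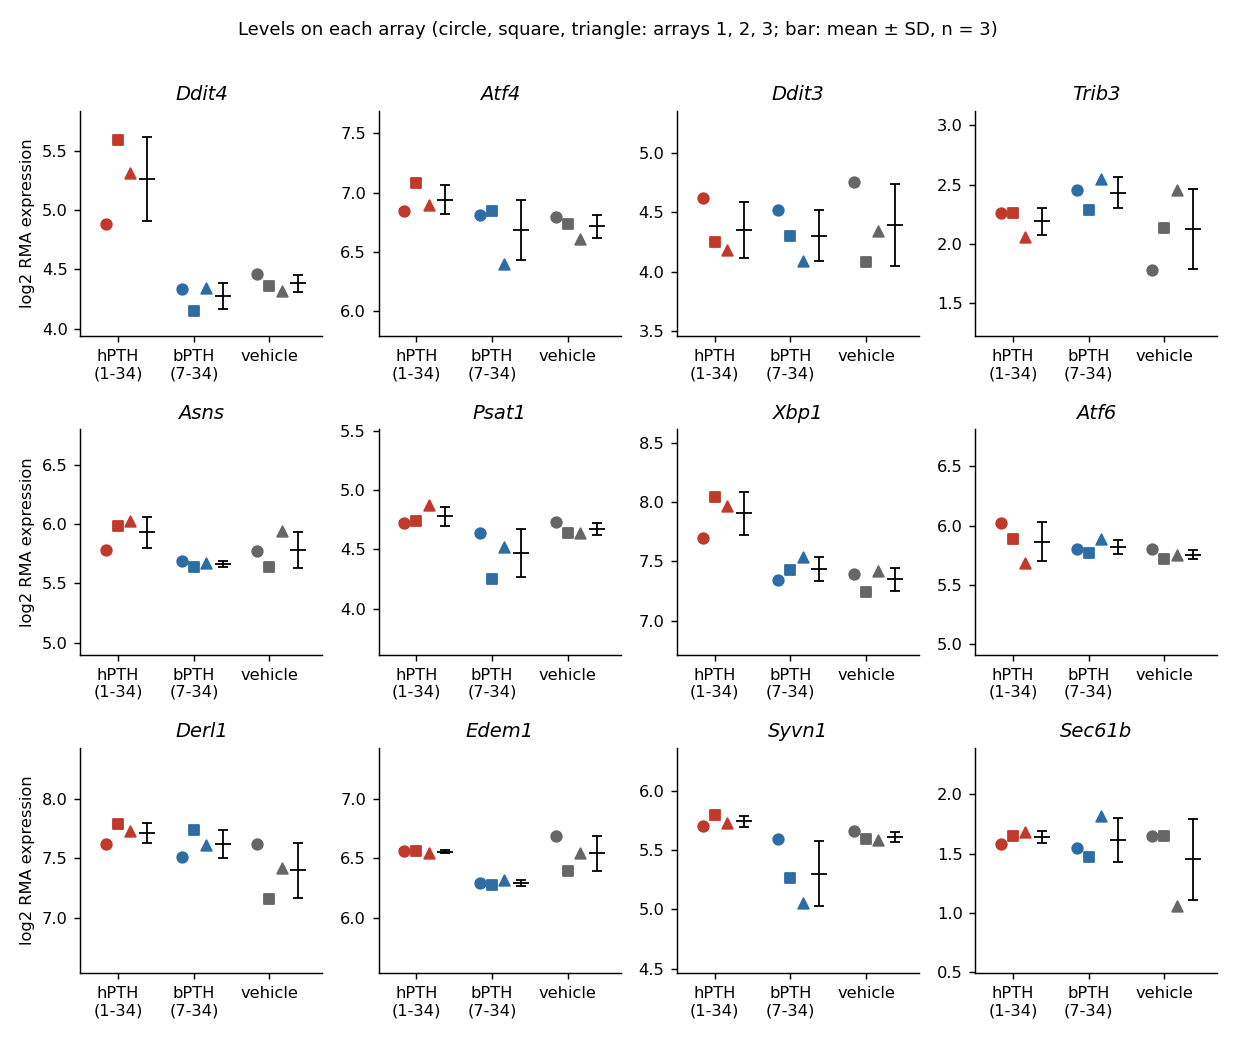
Log2 level (vertical axis, one panel per gene, all of the same span but each centred on its own gene) of 12 members in every array. Groups are hPTH(1-34), bPTH(7-34) and vehicle from left to right, with symbols for replicates 1 to 3 and bars at the group mean ± SD (n = 3). In Ddit4 and Xbp1 the 3 hPTH(1-34) arrays lie above the 6 others, and in Ddit3, Trib3 and Atf6 the groups of hPTH(1-34) and vehicle overlap.

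In the XBP1/ATF6 arm the largest difference with hPTH(1-34) was that of Xbp1. Its log2 level was 7.70, 8.04 and 7.97 in the hPTH(1-34) arrays, 7.34, 7.43 and 7.54 in the bPTH(7-34) arrays, and 7.39, 7.24 and 7.42 in the vehicle arrays. The hPTH(1-34) arrays were all above the 6 others, and the bPTH(7-34) and vehicle arrays overlapped. The difference of hPTH(1-34) from vehicle was 0.55 ± 0.11 (SE; 95% interval 0.30 to 0.81, adjusted p = 0.0960, limma), or 0.31, 0.80 and 0.55 within replicate numbers. Xbp1 passed without hPTH(1-34) replicate 1 (0.66, adjusted p = 0.0306).

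With bPTH(7-34) the difference of Xbp1 from vehicle was 0.09 ± 0.11 (95% interval -0.17 to 0.34, adjusted p = 0.999, limma). Between the peptides it was 0.47 ± 0.11, 1.38-fold higher with hPTH(1-34), and did not pass (adjusted p = 0.158). Each array gives 1 value per transcript cluster, so the spliced and unspliced forms of Xbp1 RNA were not told apart. The bases before the Xbp1 start are printed beside those of Ddit4 for comparison. They hold 0 matches to CCACG and 0 to TGACG, and no capitals appear.
Xbp1, chr11:5520441-5520640, plus strand: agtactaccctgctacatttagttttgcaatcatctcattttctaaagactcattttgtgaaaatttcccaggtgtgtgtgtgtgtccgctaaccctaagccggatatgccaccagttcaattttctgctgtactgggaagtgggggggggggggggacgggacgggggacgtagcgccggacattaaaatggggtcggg

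The sensors themselves lay close to vehicle. Atf6 was at 6.02, 5.89 and 5.69 with hPTH(1-34), 5.80, 5.77 and 5.89 with bPTH(7-34), and 5.80, 5.72 and 5.75 with vehicle, and the 3 groups overlapped. It differed from vehicle by 0.11 ± 0.10 with hPTH(1-34), and Ern1 differed by 0.10 ± 0.10 (adjusted p = 0.789 and 0.802, limma). Eif2ak3, the PERK gene, which belongs to neither arm and stands upstream of ATF4, differed by -0.04 ± 0.10 with hPTH(1-34) and by -0.07 ± 0.10 with bPTH(7-34). Their 95% intervals for hPTH(1-34) together ran from -0.28 to 0.34, and differences within these bounds were not resolved.

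The folding members lay close to vehicle with both peptides. They are the lectin chaperones Calr (calreticulin) and Canx (calnexin), the disulfide isomerases Pdia3 and Pdia6, and Sdf2l1, Creld2 and Manf, proteins of the ER lumen that ER stress raises. With hPTH(1-34) the 7 genes differed from vehicle by -0.03 (Pdia6) to 0.10 (Manf), with 95% intervals between -0.28 and 0.42, and with bPTH(7-34) by -0.10 to 0.05, with intervals between -0.36 and 0.31. For Calr, whose ERSE is printed above, the log2 level was 11.50, 11.52 and 11.49 with hPTH(1-34), 11.50, 11.66 and 11.52 with bPTH(7-34), and 11.52, 11.47 and 11.55 with vehicle. All 9 Calr values lay within a narrow band, and the difference of hPTH(1-34) from vehicle was -0.01 ± 0.08 (95% interval -0.20 to 0.18). The ERSE-bearing Canx, Pdia6 and Creld2 differed by -0.03, -0.03 and 0.05.

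Among the ERAD and translocation members, the differences with hPTH(1-34) ran from -0.03 (Derl2) to 0.31 (Derl1), and 0 of 8 passed. A dimmer cluster of Derl2, averaging 2.26, differed by -0.27 ± 0.16 (adjusted p = 0.663, limma), its hPTH(1-34) arrays all below the vehicle arrays. Derl1, derlin 1, part of the channel through which ERAD substrates leave the ER, was at 7.62, 7.79 and 7.73 with hPTH(1-34), 7.51, 7.74 and 7.61 with bPTH(7-34), and 7.62, 7.16 and 7.42 with vehicle. Vehicle replicate 1 equalled the lowest hPTH(1-34) array, and the other vehicle arrays were the lowest of all 9. The difference was 0.31 ± 0.13 for hPTH(1-34) and 0.22 ± 0.13 for bPTH(7-34) against vehicle (adjusted p = 0.480 and 0.999, limma). Herpud1, a scaffold of the ERAD ligase complex whose window holds both an ERSE-II and a CARE core, differed by 0.01 ± 0.11 with hPTH(1-34).

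In Syvn1, Edem1 and Sel1l, which act together in ERAD, the bPTH(7-34) group had the lowest mean, although in Syvn1 it overlapped the vehicle group. Syvn1, the ubiquitin ligase HRD1, was at 5.70, 5.79 and 5.73 with hPTH(1-34), 5.59, 5.26 and 5.05 with bPTH(7-34), and 5.66, 5.59 and 5.58 with vehicle. Of its bPTH(7-34) arrays, replicates 2 and 3 were the lowest of all 9, and replicate 1 equalled a vehicle array. Against vehicle it differed by -0.31 ± 0.13 with bPTH(7-34) and by 0.13 ± 0.13 with hPTH(1-34) (adjusted p = 0.999 and 0.810), and between the peptides by 0.44 ± 0.13 (adjusted p = 0.264, limma).

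Edem1, a lectin that hands misfolded glycoproteins to ERAD, was at 6.56, 6.56 and 6.54 with hPTH(1-34), 6.29, 6.27 and 6.32 with bPTH(7-34), and 6.69, 6.39 and 6.54 with vehicle. The bPTH(7-34) arrays were below all others. Against vehicle it differed by -0.25 ± 0.09 with bPTH(7-34) (adjusted p = 0.999, limma), and between the peptides by 0.26 ± 0.09 (adjusted p = 0.404). A dimmer cluster of Edem1 differed by 0.10 ± 0.12 with bPTH(7-34). Its group means were 1.21, 1.36 and 1.26 with hPTH(1-34), bPTH(7-34) and vehicle. These are under the background level of 1.69 described below, so that cluster says nothing on the gene. Sel1l, the partner of HRD1, differed by -0.16 ± 0.10 with bPTH(7-34) against vehicle, its bPTH(7-34) arrays below the vehicle arrays, and by 0.04 ± 0.10 with hPTH(1-34).

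Sec61b was too dim to read, and Derl3 nearly so. Sec61b, a subunit of the channel through which proteins enter the ER, was at 1.58, 1.65 and 1.68 with hPTH(1-34), 1.55, 1.47 and 1.82 with bPTH(7-34), and 1.65, 1.65 and 1.06 with vehicle. Its 3 group means were under 1.69, a level of background set where 95% of 1105 olfactory receptor genes lie below it in the vehicle group, so its values say nothing on the gene. Derl3 stood just above that level, with group means of 1.72, 1.86 and 1.69 for hPTH(1-34), bPTH(7-34) and vehicle.

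For bPTH(7-34) against vehicle, 0 of 31 members passed an adjusted p of 0.05, and of all clusters 0% passed. At an unadjusted p below 0.05, 0 members were higher and 2 lower (Edem1 and Syvn1, 6.45% of the 31), against 1.86% of all clusters higher and 1.45% lower. The bPTH(7-34) arrays lay below all vehicle arrays in 2 members, Edem1 and Sel1l, and above them in 0, against 2.39% and 2.90% of all clusters. The median over the members was -0.0033, with 15 of 31 above 0. The half-width of the members' 95% intervals had a median of 0.26 (0.18 to 0.46), so that differences smaller than this could not be resolved gene by gene.

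Between the peptides, 1 of 31 members passed, Ddit4, which was higher in the hPTH(1-34) group, against 0.332% of all clusters higher. At an unadjusted p below 0.05, 6 members were higher in the hPTH(1-34) group (Ddit4, Xbp1, Syvn1, Edem1, Psat1 and Asns, 19.4% of the 31) and 0 lower, against 5.30% of all clusters higher and 4.22% lower. Here too brighter clusters reached the limit more often. In either direction 2240 of all 23521 did, 1478 of 9562 averaging 3 or more, and 972 of 5144 averaging 5 or more. Among members with such averages, 6 of 25 and 5 of 17 were higher and 0 lower. The hPTH(1-34) arrays lay above all bPTH(7-34) arrays in 7 members (those 6 and Sel1l) and below them in 1 (Trib3), against 5.99% and 5.10% of all clusters. For Edem1, Syvn1, Psat1 and Sel1l the larger share of that difference lay in the bPTH(7-34) group, whose means were below those of vehicle, and for Ddit4 and Xbp1 it lay in the hPTH(1-34) group. The median over the members was 0.07, against -0.0033 over all clusters.

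**Figure D4:**
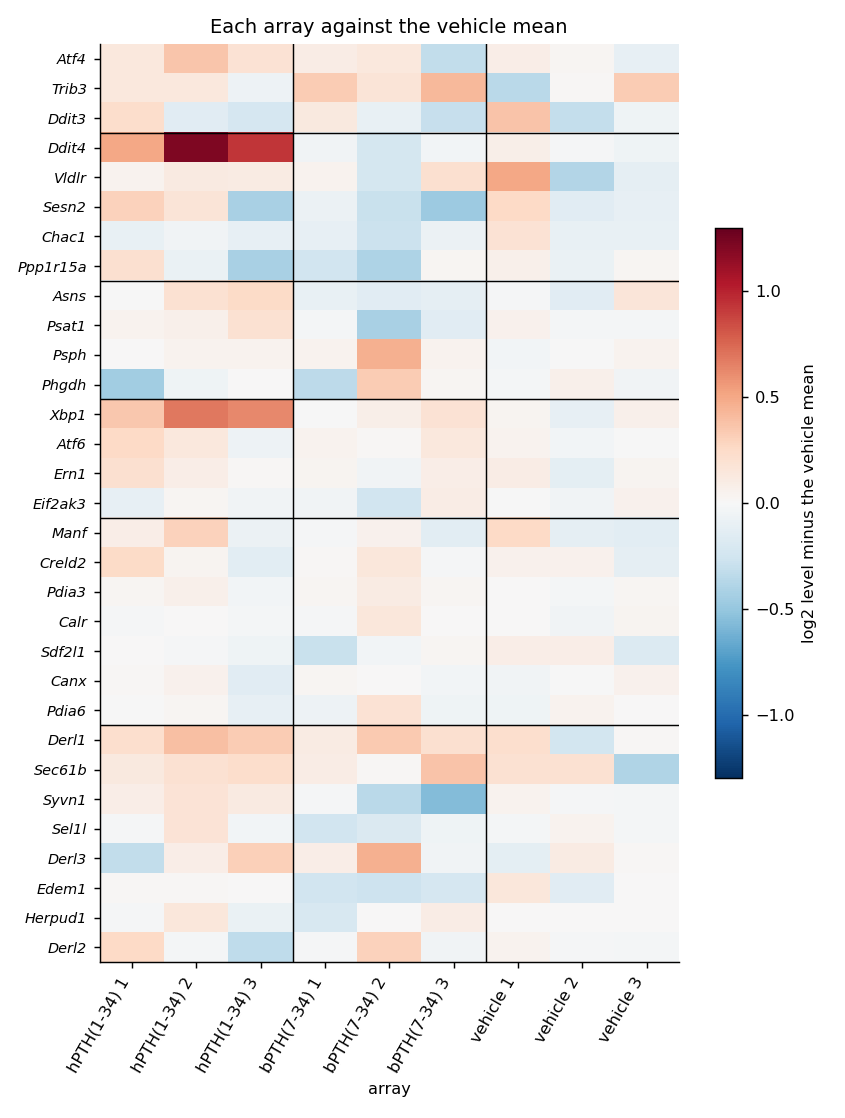
Heat map of the 31 measured members (down the page, ordered by role) in the 9 arrays (hPTH(1-34), bPTH(7-34) and vehicle from left to right), coloured by log2 level minus that gene's vehicle mean. Ddit4 and Xbp1 are high in all 3 hPTH(1-34) arrays, and the row of Ddit3 is high in replicate 1 of each group.

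The arms were also set side by side, without a test between them. For hPTH(1-34) against vehicle, the 12 ATF4 arm genes had a median difference of 0.05 with 8 above 0, and the 18 measured XBP1/ATF6 arm genes a median of 0.03 with 13 above 0. For bPTH(7-34) the medians were -0.10 (4 of 12 above 0) and 0.04 (11 of 18 above 0). Between the peptides they were 0.10 (9 of 12) and 0.05 (11 of 18). Taken per array and relative to the vehicle means, the ATF4 arm medians were 0.09, 0.10 and 0.03 with hPTH(1-34), -0.04, -0.19 and -0.06 with bPTH(7-34), and 0.07, -0.06 and -0.05 with vehicle, so that all hPTH(1-34) arrays lay above all bPTH(7-34) arrays, and the vehicle arrays overlapped both. The XBP1/ATF6 arm medians were 0.06, 0.09 and -0.04 with hPTH(1-34), -0.01, 0.04 and -0.0067 with bPTH(7-34), and 0.05, -0.02 and 0 with vehicle, and all 3 groups overlapped. With hPTH(1-34) the largest difference of the ATF4 arm was that of Ddit4, followed by Atf4, and the largest of the XBP1/ATF6 arm that of Xbp1, followed by Derl1.

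The wider pathway was read through 102 further genes in 7 lists, 94 of them measured, and 0 passed in any of the 3 comparisons. For hPTH(1-34) against vehicle 14 of the 94 were higher at an unadjusted p below 0.05 and 0 lower, or 14.9% and 0%, against 5.53% and 3.78% of all clusters. The median difference was 0.04, and 59 were above 0. For bPTH(7-34) against vehicle 1 was higher and 0 lower (1.06% and 0%, against 1.86% and 1.45% of all clusters). Between the peptides 13 were higher and 2 lower (13.8% and 2.13%, against 5.30% and 4.22% of all clusters). The lists were bright, with mean log2 levels of 5.04 to 7.83 on single arrays, against array medians of 1.67 to 1.76. Of 5144 clusters averaging 5 or more, 948 were below 0.05 in either direction for hPTH(1-34) against vehicle, and 972 between the peptides. For these 2 comparisons the share over all clusters is a low reference, also for the single lists below. An excess of the lists was not tested.

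Other ATF4 targets and partners held 7 of these 14, out of 20 measured (35.0%, against 5.53% of all clusters). Their median was 0.01, and 10 of 20 were above 0. Gpt2, which converts alanine and glutamate, was at 5.65, 5.49 and 5.62 with hPTH(1-34), 5.05, 4.62 and 4.56 with bPTH(7-34), and 5.02, 5.02 and 4.58 with vehicle, with the hPTH(1-34) arrays above all others. It differed from vehicle by 0.71 ± 0.16 (adjusted p = 0.137) with hPTH(1-34). Cth, the last enzyme of cysteine synthesis, differed by 0.92 ± 0.26 (adjusted p = 0.261, limma for both), with overlap between the groups. The other 5, named after their values were seen, were the amino acid transporters Slc7a5 (0.74), Slc7a1 (0.44) and Slc3a2 (0.39), the mitochondrial folate enzyme Mthfd2 (0.47) and the factor Cebpb (0.43).

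Of the aminoacyl-tRNA synthetases, which charge tRNAs and are ATF4 targets, 10 of 11 were above 0 with hPTH(1-34), and 1 was higher at an unadjusted p below 0.05 (9.09%, against 5.53% of all clusters). That was Eprs, at 7.96, 8.81 and 8.85 with hPTH(1-34), 7.39, 7.72 and 7.72 with bPTH(7-34), and 7.38, 7.61 and 7.72 with vehicle. All hPTH(1-34) arrays were above the others, and the difference from vehicle was 0.97 ± 0.23 (adjusted p = 0.155, limma). Cars differed by 0.33 ± 0.15. The list of eIF2alpha kinases and phosphatase factors had 2 of 7 (28.6%) higher before adjustment, Eif2b1 (0.36 ± 0.13), a subunit of the exchange factor that phosphorylated eIF2alpha blocks, and Ppp1r15b (0.25 ± 0.09), the constant counterpart of Ppp1r15a.

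On the folding side, the chaperones outside the member list gave 1 of 16 higher before adjustment, a share of 6.25%, near the 5.53% of all clusters. It was Txndc11 (0.43 ± 0.13, adjusted p = 0.285). Hspa5 (BiP), the chaperone that holds the 3 sensors inactive and the usual reporter of ER stress, was at 8.12, 8.18 and 8.02 with hPTH(1-34), 7.97, 8.01 and 7.86 with bPTH(7-34), and 7.98, 7.81 and 7.92 with vehicle. The hPTH(1-34) arrays lay above both other groups by a small margin, and the difference from vehicle was 0.20 ± 0.09 (adjusted p = 0.538, limma). The ERAD list gave 0 of 11, with Ube2j1 at 0.24 ± 0.15 and Nploc4 at 0.23 ± 0.14.

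The list of ER translocation and vesicle transport gave 2 of 20 higher before adjustment (10.0%, against 5.53% of all clusters). Sec23b, a coat protein of the vesicles that carry cargo out of the ER, was at 6.15, 6.40 and 6.33 with hPTH(1-34), 5.83, 5.86 and 5.65 with bPTH(7-34), and 5.83, 5.53 and 5.64 with vehicle. Its hPTH(1-34) arrays were above the others, and it differed from vehicle by 0.63 ± 0.11 (adjusted p = 0.0644). Srprb, a subunit of the receptor that docks ribosomes at the ER, differed by 0.41 ± 0.10 (adjusted p = 0.158, limma for both). Among the ATF6 proteases and the CREB3 family of membrane-bound factors, 1 of 9 (11.1%) was higher before adjustment, Creb3l2 (0.61 ± 0.20, adjusted p = 0.360), while Creb3 differed by -0.13 ± 0.09. The strip plot of the lists shows these genes against the remainder.

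**Figure D5:**
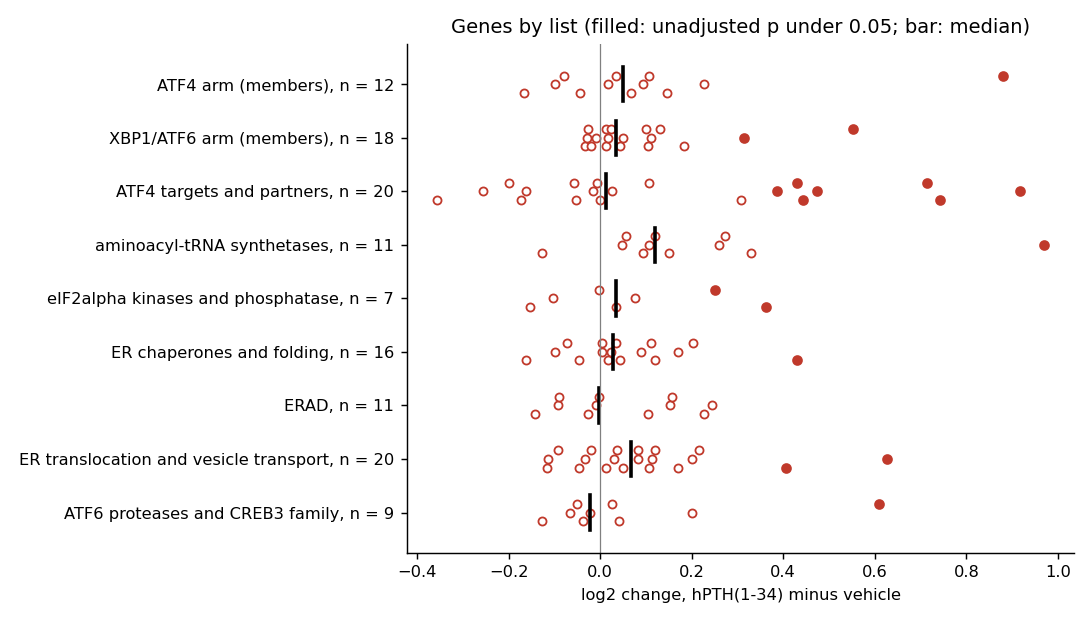
Log2 difference of hPTH(1-34) from vehicle (horizontal axis) for each measured gene of the 2 member arms and the 7 further lists, one point per gene, filled where the unadjusted p was under 0.05, and a bar at each list's median. Most points lie near 0, and the rightmost of the lists include Ddit4 (0.88), Xbp1 (0.55), Cth (0.92), Eprs (0.97), Sec23b (0.63) and Creb3l2 (0.61).

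Over the whole series the arrays were alike, with medians of 1.67 to 1.76 on the log2 scale and correlations of 0.977 to 0.982 within groups and 0.972 to 0.985 between them. Of the osteoblast markers, the collagen gene Col1a1 averaged 12.29, 12.27 and 12.29 with hPTH(1-34), bPTH(7-34) and vehicle, while the late markers Bglap and Dmp1 were under the background level in all 3 groups. Alpl, the alkaline phosphatase of mineralising bone, was the marker of 10 that differed most with hPTH(1-34), by 0.97 ± 0.17 against vehicle and 0.99 ± 0.17 against bPTH(7-34) (adjusted p = 0.0601 and 0.0539, limma). Between the peptides Pth1r, the receptor, differed by -0.58 ± 0.19 (hPTH(1-34) minus bPTH(7-34), adjusted p = 0.346) and the dim Sp7 by -0.50 ± 0.21 (adjusted p = 0.488). Of 8 macrophage and osteoclast markers, 2 were above 0 for hPTH(1-34) against vehicle (median -0.15, 0 past the test), and their summed linear level overlapped, at 376 to 627 with hPTH(1-34), 416 to 595 with bPTH(7-34) and 473 to 623 with vehicle. Of 6 endothelial markers, Kdr and Emcn were under the background level as well, while the list's mean log2 level was 1.78 to 1.99 over the arrays. The summed level of 6 chondrocyte markers was 294 to 541 with hPTH(1-34), 280 to 623 with bPTH(7-34) and 304 to 522 with vehicle. That of 6 skeletal muscle markers was 28 to 34, 32 to 45 and 27 to 44 in this order. In 3 of these 6 (50.0%) the hPTH(1-34) arrays lay below the bPTH(7-34) arrays, against 5.10% of all clusters. Of 7 adipocyte markers, 6 were above 0 for hPTH(1-34) against vehicle (median 0.38, 0 past the test), and their summed linear level was 445 to 769 with hPTH(1-34), 397 to 566 with bPTH(7-34) and 372 to 476 with vehicle. The part of other cell types in the differences of Ddit4 and Xbp1 was not tested.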

How the data were processed

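Affymetrix Mouse Gene 2.0 ST arrays of 9 samples were used. The deposited values are log2 expression per transcript cluster, made by the authors with Affymetrix Expression Console and RMA per the submitters' processing notes, versions not given in the sources used here. They are rounded to 2 decimals, and background correction and between-array normalization were thus done before deposit. Arrays have no read depth, and their number limits the precision.

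Of 41345 clusters, 23521 have exactly 1 gene symbol, 1814 several and 16010 none. The 23521 were tested with lmFit and eBayes of limma 3.58.1 under R 4.3.3, and the model held treatment group and nothing else for the 9 arrays together. Two-sided p-values were adjusted by Benjamini-Hochberg separately for the 3 comparisons, and 0.05 was the threshold. Errors beside differences are standard errors of that fit. Where 2 clusters carry a member's symbol (3 members), the brighter over the 9 arrays was read. Fold values of differences are sizes. Alternatives are in the closing section. Motifs were matched on both strands of RefSeq windows (GRCm38.p6). Plots used matplotlib 3.10.9 in Python 3.11.15.

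The members and lists were chosen with earlier results of these data known. Values per array were to be given for members past the threshold, for Xbp1, Ddit4, Atf4 and Ddit3, and in each arm for up to 4 members that ranked first by p in the comparison of hPTH(1-34) with vehicle and up to 2 in the others. Of the further lists, 2 genes each by that p were named. Other genes named, such as Calr, Ppp1r15a, Sesn2, Derl3, Sel1l and Hspa5, were chosen after their values were seen.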

Additional observations from a re-analysis of the deposited data

How the results depend on the processing

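For hPTH(1-34) against vehicle, the count of 0 members past the threshold became 2 (Ddit4 and Xbp1) when the test was limited to clusters averaging 3 or more on the log2 scale, 1 (Xbp1) at 5 or more, which removes Ddit4, and 1 (Ddit4) with array weights, and it ran from 0 to 2 when each array was left out, with 2 only without hPTH(1-34) replicate 1. Between the peptides the count of 1 became 0 with all clusters tested and with only the 6 arrays of the comparison, and ran from 0 to 1 when each array was left out. With the limit at 5 the 1 member past it was Xbp1 (adjusted p = 0.0481, limma) in place of Ddit4, which that filter removes. For bPTH(7-34) against vehicle it was 0 under all 20 alternatives. The filters and array omissions change how many clusters or arrays are tested, and the cause of the other shifts was not tested. The difference of Ddit4 from vehicle with hPTH(1-34) ran from 0.72 to 1.07 over 19 settings (adjusted p 0.00851 to 0.242) and that of Xbp1 from 0.49 to 0.66 over 20 (adjusted p 0.0285 to 0.316), both above 0 in each. Of the other 29 members, 0 passed in any comparison or setting.

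With the replicate number as a block, the count between the peptides was 0 (Ddit4, adjusted p = 0.0660 in limma) and the other member calls did not change, while 112, 0 and 116 of all clusters passed for hPTH(1-34) against vehicle, bPTH(7-34) against vehicle and between the peptides, against 106, 0 and 109 without the block. Deviations of arrays with one number correlated at 0.0646 to 0.364 across all tested clusters, above 0.1 in 6 of 9 pairs, and at 0.0696 to 0.601, above 0.1 in 8 of 9, across the 5144 clusters averaging 5 or more. Over those clusters, 6 of 9 arrays correlated best with their own number, a hint from the data and not from the design, so the block remained an alternative.

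The median of the ATF4 arm for hPTH(1-34) against vehicle became 0.15 with the limit at 5, and ran from -0.015 to 0.14 with each array left out, and that of the XBP1/ATF6 arm from -8e-04 to 0.10. For bPTH(7-34) against vehicle the ATF4 arm ran from -0.18 to -0.034. Between the peptides the ATF4 arm became 0.26 with the limit at 3 and 0.26 with it at 5, both over fewer genes, and ran from 0.028 to 0.17 with each array left out, and the XBP1/ATF6 arm ran from -0.0092 to 0.10.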

Other observations

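Ddit3 and Sesn2 were highest in replicate 1 of each group. Ddit3 was at 4.62, 4.52 and 4.76 in replicate 1 of the hPTH(1-34), bPTH(7-34) and vehicle groups, and at 4.08 to 4.34 in the 6 arrays of the other numbers, so that the 3 arrays of number 1 lay above all others. Sesn2, another stress-responsive member, was at 5.85, 5.47 and 5.81 in the arrays of number 1, which were the highest of their groups. They did not lie above all others, as hPTH(1-34) replicate 2 was at 5.72. Within replicate numbers Sesn2 differed from vehicle by -0.34, -0.14 and -0.36 with bPTH(7-34), and by 0.04, 0.32 and -0.31 with hPTH(1-34). These genes were picked after their values were seen, and the source of the pattern was not tested.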
